A study of Mus musculus with 6 samples.

Results

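Leukocyte integrins and P-selectin glycoprotein ligand were described through 9 genes of the 39179 in the count files, chosen by name: *Itgam*, *Itgal*, *Itgax*, *Itga4*, *Itga5*, *Itgb1*, *Itgb2*, *Itgb7* and *Selplg*. All 9 were found in the files and all 9 passed the filter on low counts. Marrow RNA of 6 littermates was sequenced, 3 of them *MxCDX2* mice and 3 controls. *MxCDX2* mice carried both *RsCDX2*, a knockin at the *Rosa26* locus of the human *CDX2* coding sequence behind a loxP-flanked stop, and *Mx1Cre*, a transgene that drives the Cre recombinase from the interferon-inducible *Mx1* promoter, which is not restricted to one cell type. As controls, 1 littermate carried *RsCDX2* alone (control 1), 1 carried *Mx1Cre* alone (control 2) and 1 was wild type (control 3), so that each control genotype was seen once. All 6 mice were given 3 intraperitoneal injections of poly(I:C) at 10 µg per g of body weight at an age of 3 months, and RNA was prepared 6 weeks later.

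Integrins are receptors made of 1 alpha and 1 beta subunit, and the pair sets what the cell binds. The leukocyte subunit *Itgb2* (CD18) pairs with *Itgal* (CD11a, to form LFA-1), *Itgam* (CD11b, to form Mac-1) or *Itgax* (CD11c), and these receptors bind ICAM proteins, complement fragments and fibrinogen on blood vessels and other cells. *Itga4* (CD49d) pairs with *Itgb1* (CD29) to form VLA-4, which holds blood progenitors to VCAM1 and fibronectin in the marrow, or with *Itgb7*, which binds MAdCAM-1 on gut vessels. *Itga5* (CD49e) pairs with *Itgb1* alone into the classical fibronectin receptor. *Selplg* encodes PSGL-1, the main ligand through which leukocytes roll on P-selectin, and it binds only after its sugars and tyrosines have been modified.

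Between 38646101 and 49899650 reads were counted on genes per mouse, and values below are normalized counts, which are reads scaled to a common library size by the TMM method. Across all 15980 genes tested, 2177 passed both thresholds, a log2 fold change beyond 1 in either direction together with an adjusted p below 0.05, in edgeR's quasi-likelihood test, 734 higher and 1443 lower in *MxCDX2* mice. Mouse *Cdx2* had 152 to 161 normalized counts in the *MxCDX2* mice and 0 to 5.11 in the controls. The inserted coding sequence is human, and whether these reads came from it or from the mouse gene was not tested. The wild-type control stood apart: its 8 megakaryocyte and platelet markers summed to 251419 normalized counts, against 19584 and 30457 in the other controls, and values without it are given beside the results where it changed a call, a sign or a value by over 1.5 times. All 11 marker lists, each of 5 to 8 genes of one cell type or of related types (7 of 8 in the erythroid list), had reads in every mouse. In such bulk samples, fewer cells of a type and less RNA per cell cannot be told apart.

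The 9 genes split in *MxCDX2* marrow. *Itga5* rose past both thresholds, and *Itgb7*, *Itga4* and *Selplg* were higher with an adjusted p below 0.05 but a smaller fold. The *Itgb2* family was level or lower: *Itgax*, *Itgam* and *Itgb2* had negative fold changes that did not pass the test, and *Itgal* was nearly the same in both groups. Thus 1 of 9 genes passed both thresholds, where 13.6% of all tested genes did, 4.59% upward and 9.03% downward. On the adjusted p alone, 4 of 9 passed, all higher, where 21.7% of all genes passed and 9.91% were higher. The groups did not overlap for 5 of 9 genes, 4 with every *MxCDX2* mouse above every control and 1 below, where 42.1% of all genes were separated in this way, 21.4% above and 20.7% below. The count of 4 rested on single mice: it fell to 1 without *MxCDX2* mouse 1 or 3, was 2 without control 1 or 2, and was 5 without the wild-type mouse. Fold changes above 0 were seen for 5 of 9 genes and for 50.1% of all genes. The median log2 fold change of the 9 genes was 0.04, beside 0.002 for all genes tested, and 0.29 without the wild-type mouse, beside 0.037 for all genes.

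**Figure D1:**
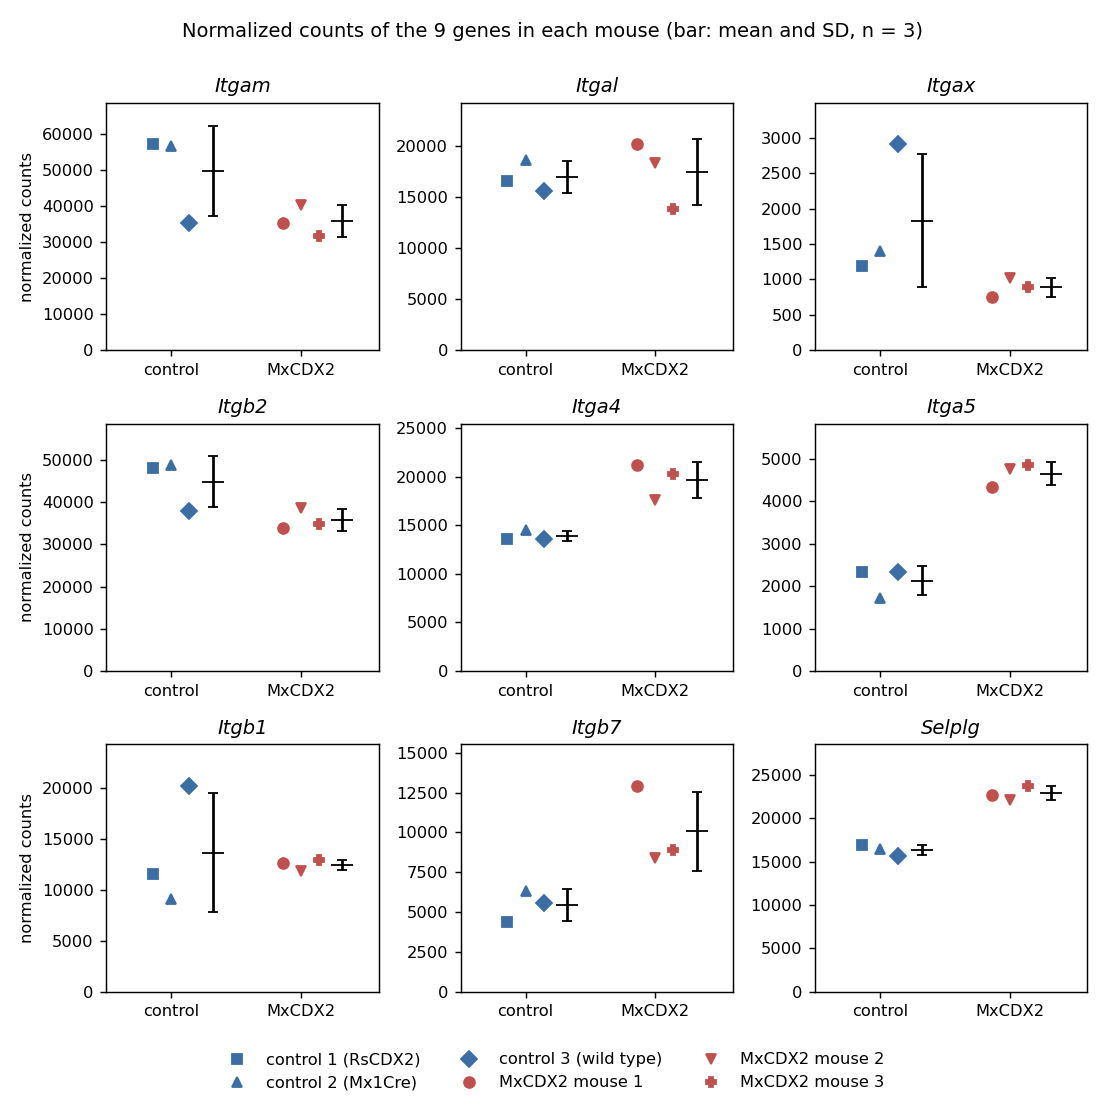
Normalized counts (vertical axes, each from 0) of the 9 genes in each mouse, with controls in blue and *MxCDX2* mice in red, and the mean and SD of 3 mice per group in black. The *MxCDX2* mice lie above every control for *Itga4*, *Itga5*, *Itgb7* and *Selplg* and below every control for *Itgax*, and the wild-type control is the highest mouse for *Itgax* and *Itgb1*.

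*Itga5*, the alpha subunit of the fibronectin receptor (GRCm38 chromosome 15, 103344286 to 103366763, minus strand), gave the clearest difference. Its normalized counts were 2345, 1727 and 2328 in controls 1, 2 and 3 and 4340, 4760 and 4859 in *MxCDX2* mice 1, 2 and 3. The lowest *MxCDX2* mouse was well above the highest control, with group means of 4653 ± 276 and 2133 ± 352 (SD, n = 3 each). The fitted log2 fold change was 1.13 ± 0.14 (SE), a 2.18-fold rise, with an adjusted p of 0.00375 in edgeR's quasi-likelihood test. Its adjusted p stayed at or below 0.0248 in all 13 alternatives, and its fold missed the threshold only without control 2, at a log2 fold change of 0.99.

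The beta partner of *Itga5* did not move with it. *Itgb1*, the shared beta subunit of the VLA family (chromosome 8, 128685654 to 128733200), had 11579, 9146 and 20279 normalized counts in the controls and 12635, 11912 and 12919 in the *MxCDX2* mice. The wild-type mouse was far above the rest and the groups overlapped. Its log2 fold change was -0.13 ± 0.28 (adjusted p 0.782, edgeR) and turned to 0.29 without the wild-type mouse (adjusted p 0.133).

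*Itga4*, the alpha subunit of VLA-4 (chromosome 2, 79255426 to 79333123), had 13608, 14465 and 13589 normalized counts in the controls and 21185, 17602 and 20230 in the *MxCDX2* mice. The 3 controls were within a narrow range and every *MxCDX2* mouse was above them. In the fit, the log2 fold change was 0.50 ± 0.12, a 1.42-fold difference, with an adjusted p of 0.0259 in edgeR that lay between 0.0593 and 0.11 without *MxCDX2* mouse 1 or 3 or without control 1 or 2. An exon of *Itga4* overlaps the opposite-strand gene *Cerkl*, which had 54 to 93 reads per mouse.

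*Itgb7*, the beta subunit that turns *Itga4* toward MAdCAM-1 (chromosome 15, 102215995 to 102231944, minus strand), had 4359, 6344 and 5575 normalized counts in the controls and 12940, 8415 and 8881 in the *MxCDX2* mice. The groups were apart, and *MxCDX2* mouse 1 was the highest by a wide margin. The log2 fold change was 0.89 ± 0.21, a 1.86-fold difference, with an adjusted p of 0.0286 in edgeR. Both thresholds were passed without *MxCDX2* mouse 2 (1.01, adjusted p 0.045) and without control 2 (1.02, adjusted p 0.0426), and the adjusted p was above 0.05 without *MxCDX2* mouse 1 (0.059), *MxCDX2* mouse 3 (0.0657) or control 1 (0.0692).

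*Selplg* (chromosome 5, 113818536 to 113832644, minus strand) varied little within either group. It had 16893, 16443 and 15671 normalized counts in the controls and 22685, 22158 and 23759 in the *MxCDX2* mice, with no overlap. The log2 fold change was 0.49 ± 0.11, a 1.40-fold difference (adjusted p 0.0207, edgeR). With 1 mouse left out the log2 fold change stayed between 0.46 and 0.52, and the adjusted p was 0.0526 to 0.104 without any one of the *MxCDX2* mice and 0.0608 without control 2.

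The *Itgb2* receptors gave a different picture. *Itgb2* itself (chromosome 10, 77530252 to 77565708) had 47979, 48794 and 37869 normalized counts in the controls and 33930, 38705 and 34714 in the *MxCDX2* mice. Controls 1 and 2 were the highest, and the wild-type mouse lay within the range of the *MxCDX2* mice. Its log2 fold change was -0.33 ± 0.16 and did not pass the test (adjusted p 0.187, edgeR).

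*Itgam*, the CD11b gene used as a myeloid marker (chromosome 7, 128062640 to 128118491), also had its highest values in controls 1 and 2. It had 57169, 56733 and 35211 normalized counts in the controls and 35238, 40430 and 31589 in the *MxCDX2* mice. The wild-type mouse was again among the *MxCDX2* mice. The log2 fold change was -0.48 ± 0.23 (adjusted p 0.184, edgeR), and -0.65 with an adjusted p of 0.0247 without the wild-type mouse, still under the fold threshold. The later annotation used here places a second gene model, *Gm49368*, over exons of *Itgam* on the same strand, which was not analysed here.

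*Itgax*, the CD11c gene known from dendritic cells and some macrophages (chromosome 7, 128129547 to 128150657), lies next to *Itgam*. It had 1185, 1402 and 2909 normalized counts in the controls and 749, 1024 and 890 in the *MxCDX2* mice. All *MxCDX2* mice were below all controls, and the wild-type mouse was the highest. The log2 fold change of -1.05 ± 0.35 did not pass the test in edgeR (adjusted p 0.0773), did pass in DESeq2 (-1.04, adjusted p 0.024), and was -0.52 without the wild-type mouse (adjusted p 0.0851, edgeR).

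*Itgal*, the CD11a gene carried by nearly all leukocytes (chromosome 7, 127296260 to 127335138), had 16605, 18629 and 15548 normalized counts in the controls and 20147, 18346 and 13811 in the *MxCDX2* mice. The *MxCDX2* mice spanned the whole control range. Accordingly, the log2 fold change was 0.04 ± 0.17 (adjusted p 0.885, edgeR) and -0.07 without *MxCDX2* mouse 1.

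**Figure D2:**
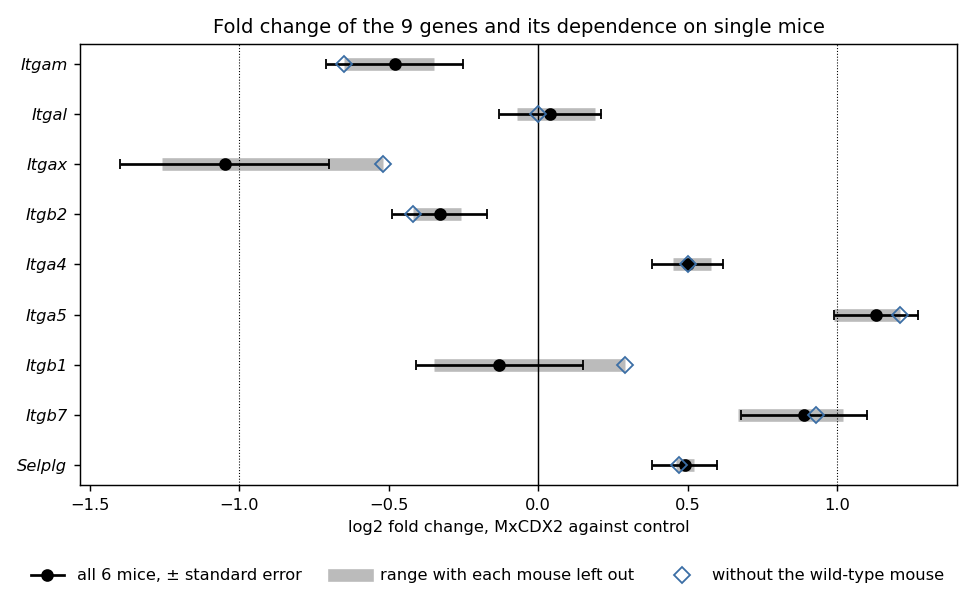
Log2 fold change of each gene between *MxCDX2* and control mice (horizontal axis), with its standard error in black, the range of the 6 fits that leave out 1 mouse in grey, and the fit without the wild-type mouse as an open diamond. Dotted lines mark the fold threshold. *Itgax* and *Itgb1* depend most on the wild-type mouse, moving from -1.05 to -0.52 and from -0.13 to 0.29.

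Upstream sequences from RefSeq (GRCm38.p6) were at hand for 6 of the 9 genes, with none for *Itgal*, *Itgb2* and *Selplg*. The 250 bases before the start are shown for *Itga5*, the one gene past both thresholds, and for the neighbors *Itgam* and *Itgax*, whose lower values differed in size. Each is given 5′ to 3′ on the strand of its gene, and capitals mark GAGGAA or its reverse complement TTCCTC, the core letters bound by the myeloid factor PU.1. The windows are chr15:103366792-103367041 (minus strand), chr7:128062390-128062639 (plus strand) and chr7:128129300-128129549 (plus strand).
Itga5: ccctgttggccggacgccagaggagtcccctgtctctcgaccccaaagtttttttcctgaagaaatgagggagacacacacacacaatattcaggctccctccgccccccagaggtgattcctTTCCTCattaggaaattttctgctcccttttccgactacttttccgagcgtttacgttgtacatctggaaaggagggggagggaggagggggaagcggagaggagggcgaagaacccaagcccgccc
Itgam: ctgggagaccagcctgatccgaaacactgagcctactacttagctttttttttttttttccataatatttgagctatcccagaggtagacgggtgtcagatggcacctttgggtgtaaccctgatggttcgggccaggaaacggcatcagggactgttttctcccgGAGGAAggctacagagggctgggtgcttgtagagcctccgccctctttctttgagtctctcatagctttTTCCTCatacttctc
Itgax: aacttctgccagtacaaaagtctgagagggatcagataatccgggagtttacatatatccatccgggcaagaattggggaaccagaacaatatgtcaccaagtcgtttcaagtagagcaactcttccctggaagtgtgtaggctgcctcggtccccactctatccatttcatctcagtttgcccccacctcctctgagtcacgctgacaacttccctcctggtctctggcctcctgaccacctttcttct
The letters begin 84 and 15 bases before the start of *Itgam*, 127 bases before that of *Itga5* and 9 bases before that of *Itgb1*, and are not in these windows of *Itgax*, *Itga4* and *Itgb7*. Thus 3 of 6 windows held them, where 23.3% of 32851 RefSeq windows of this length did, and the 3 genes with them had fold changes of either sign. TGTGGT (or ACCACA), the core of RUNX sites, was in the window of *Itga4* alone (14% of all windows), and TTTATG (or CATAAA), the core of CDX sites, was in 0 of 6 (10.8% of all windows). No match of one motif overlapped a match of another in these windows, and the motifs were chosen after the values had been seen. Such matches are descriptions of the sequence and not evidence of binding.

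To compare levels between genes, reads were divided by exon length in kb and by the reads on genes (RPKM scale). In the controls the order was *Itgb2* (309 ± 31.8, SD, n = 3), *Itgam* (207 ± 45.7), *Selplg* (80.7 ± 0.518), *Itgb1* (71.4 ± 33.6), *Itgal* (54.4 ± 4.56), *Itgb7* (41.5 ± 8.53), *Itga4* (21 ± 1.1), *Itga5* (9.14 ± 1.6) and *Itgax* (8.17 ± 4.55). The ranges of 3 neighboring pairs overlapped: *Selplg* and *Itgb1*, *Itgb1* and *Itgal*, and *Itga5* and *Itgax*. In the *MxCDX2* mice the order of levels was *Itgb2* (269 ± 25.8), *Itgam* (163 ± 22.8), *Selplg* (123 ± 5.05), *Itgb7* (83.0 ± 18.1), *Itgb1* (70.1 ± 2.45), *Itgal* (60.7 ± 10.7), *Itga4* (32.2 ± 2.31), *Itga5* (21.6 ± 1.78) and *Itgax* (4.24 ± 0.765), and only *Itgb7* and *Itgb1* overlapped. *Itgb7* was the sixth in the controls and the fourth in the *MxCDX2* mice, while *Itgb2* and *Itgam* led in both groups.

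Because alpha and beta subunits work as pairs, 6 ratios of alpha to beta reads per kb were compared within mice, which does not depend on scaling between libraries. The log2 ratio of *Itga5* to *Itgb1* was -2.58, -2.68 and -3.40 in the controls and -1.82, -1.6 and -1.68 in the *MxCDX2* mice. All *MxCDX2* mice were above all controls, with a difference of 1.19 in log2, or 2.27-fold, that stayed between 0.93 and 1.34 with 1 mouse left out (exact two-sided permutation p = 0.1, the smallest that 3 mice against 3 allow). The log2 ratio of *Itga4* to *Itgb7* was -0.69, -1.15 and -1.05 in the controls and -1.62, -1.27 and -1.15 in the *MxCDX2* mice. Here every *MxCDX2* mouse was at or below the lowest control, with a difference of -0.38 (exact permutation p = 0.1). Adjusted over the 6 ratios by Benjamini-Hochberg, the permutation p of these separated ratios was 0.3. For the 4 other ratios the groups overlapped, with log2 differences of -0.13 for *Itgam* to *Itgb2*, 0.35 for *Itgal* to *Itgb2*, -0.62 for *Itgax* to *Itgb2* and 0.55 for *Itga4* to *Itgb1*. The last 2 rested on the wild-type mouse, without which they were -0.11 and 0.20.

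**Figure D3:**
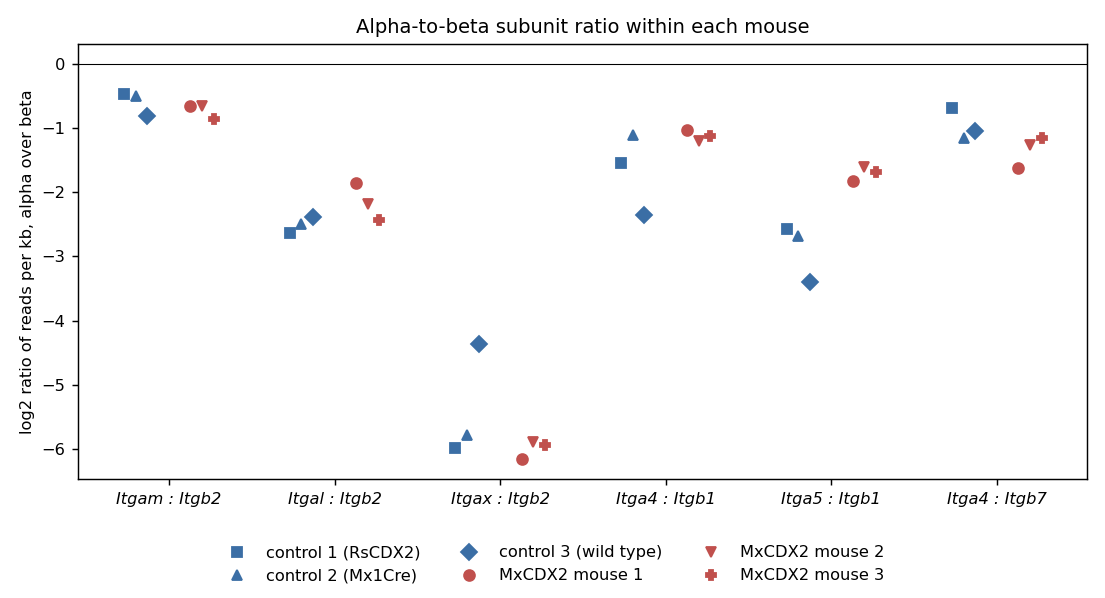
Log2 ratio of alpha to beta subunit reads per kb of exon (vertical axis) for 6 known pairs in each mouse, controls in blue and *MxCDX2* mice in red. The *Itga5* to *Itgb1* ratio is from -3.40 to -2.58 in the controls and from -1.82 to -1.6 in the *MxCDX2* mice, and the wild-type mouse stands apart from the other controls for the *Itgax* to *Itgb2* and *Itga4* to *Itgb1* ratios.

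Among the 3 beta subunits, *Itgb7* made up 7.82%, 11.2% and 10.4% of their summed reads per kb in the controls and 24.7%, 16.3% and 18.1% in the *MxCDX2* mice, so that its share was higher in every *MxCDX2* mouse. The share of *Itgb2* was 78.1%, 77.9% and 64.0% in the controls and 58.9%, 68.0% and 64.1% in the *MxCDX2* mice, which overlapped through the wild-type mouse. *Itgb1* took the remainder, from 10.9% to 25.6% in the controls and from 15.7% to 17.8% in the *MxCDX2* mice. Among the 4 alpha partners of *Itgb2* (with *Itgad*, CD11d, added), *Itgal* made up 17.6%, 19.3% and 21.9% in the controls and 29.8%, 25.1% and 24.2% in the *MxCDX2* mice. The share of *Itgad* was 1.32%, 2.04% and 7.83% in the controls and 0.386%, 0.551% and 1.15% in the *MxCDX2* mice, and *Itgam* was the main partner in every mouse, at 64.7% to 79.3%. The *Itgal* share was thus higher and the *Itgad* share lower in every *MxCDX2* mouse than in any control. Shares of a sum depend on one another, and *Itgal* itself had a log2 fold change of 0.04 (adjusted p 0.885, edgeR).

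Ratios to *Ptprc*, which encodes CD45 of leukocytes, set the 9 genes against a leukocyte gene of the same mouse. Reads of the 9 genes from cells without CD45 stay in these ratios. *Ptprc* had 31026 to 34185 normalized counts in the controls and 28588 to 36610 in the *MxCDX2* mice (log2 fold change -0.02 ± 0.15, adjusted p 0.934, edgeR). In log2, the ratio to *Ptprc* differed by 1.17 for *Itga5*, 0.91 for *Itgb7*, 0.53 for *Itga4* and 0.51 for *Selplg*, each with all *MxCDX2* mice above all controls. It differed by -0.91 for *Itgax* and -0.29 for *Itgb2*, with all *MxCDX2* mice below, and by -0.42 for *Itgam*, 0.06 for *Itgal* and -0.02 for *Itgb1*, where the groups overlapped. Each of the 6 separated ratios had the smallest exact permutation p that the design allows, 0.1, and 9 ratios were compared. Adjusted over the 9 ratios by Benjamini-Hochberg, this permutation p was 0.15 for each of the 6. By normalized counts 42.1% of all genes were separated between groups, and the share for ratios to *Ptprc* was not computed.

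Markers of the cells that carry these receptors also differed. In normalized counts, 8 mature neutrophil markers summed to 867228 to 1555888 in the controls and 420719 to 568876 in the *MxCDX2* mice, with 6 of 8 past both thresholds downward. The 8 monocyte markers summed to 233447 to 361864 in the controls and 551489 to 644041 in the *MxCDX2* mice, with 5 of 8 past both thresholds upward, and 5 promyelocyte markers summed to 33136 to 178485 and 198215 to 210578, with 2 upward. All 7 erythroid markers tested were past both thresholds downward (284974 to 369535 against 13204 to 58524), as were 4 of 8 B cell markers (18640 to 55547 against 4499 to 15909). Downward calls were also made for 2 of 8 T and NK cell markers (6269 to 12115 against 2719 to 5445), 3 of 7 dendritic cell markers (10669 to 19420 against 4341 to 6578), 3 of 7 resident macrophage markers (18230 to 51959 against 15503 to 18619), and 3 of 6 basophil, mast cell and eosinophil markers (34456 to 158710 against 12591 to 117024). In the resident macrophage list the upper control sum was that of the wild-type mouse, and the other controls had 18230 and 19380. Of the 8 megakaryocyte and platelet markers 2 were past both thresholds downward (19584 to 251419 against 8232 to 11954), and all 8 had negative fold changes. Of the 5 stromal and endothelial markers 2 were past both thresholds downward (12924 to 48978 against 5157 to 11755). All 5 had negative fold changes, and the 48978 was the wild-type mouse. Without that mouse both stromal calls, *Cxcl12* and *Cdh5*, missed the adjusted p threshold (0.0802 and 0.0666, edgeR). *C1qa* and *Fcer1a* missed it too (0.054 and 0.0548), while *Adgre1* and *Clec9a* passed both thresholds upward (1.15 and 1.16). Downward calls were then gained by *Ngp*, *Camp*, *Pax5*, *Igll1*, *Ppbp*, *Gp1bb*, *Vwf* and *Treml1*. These 8 genes, *Adgre1* and *Clec9a* were named after their values had been seen. The part of these marker shifts in the values of the 9 genes was not tested.

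Of 19 other integrin subunit genes, 18 were tested, 1 was past both thresholds upward and 4 downward, with a median log2 fold change of -1.03 beside 0.002 over all genes. Without the wild-type mouse the median of the same 18 genes was -0.46. *Itga1*, a collagen-binding alpha subunit, had 852, 845 and 372 normalized counts in the controls and 2690, 3826 and 2002 in the *MxCDX2* mice (log2 fold change 2.04 ± 0.38, adjusted p 0.0127, edgeR). *Itgb2l*, a close relative of *Itgb2* known from neutrophils, fell from 24382, 24037 and 16377 to 6802, 11038 and 6887 (-1.39 ± 0.25, adjusted p 0.0117). Every *MxCDX2* mouse was thus above every control for *Itga1* and below every control for *Itgb2l*.

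*Itgad*, the third gene in the chromosome 7 row after *Itgam* and *Itgax* (128154376 to 128223816), fell from 855, 1352 and 3822 normalized counts to 179, 276 and 449, a log2 fold change of -2.74 ± 0.63 (adjusted p 0.0252, edgeR), or -1.85 without the wild-type mouse (adjusted p 0.0251). *Itga9* fell by 2.03 on the log2 scale and *Itga2*, another collagen-binding subunit, fell by 3.3, and both were highest in the wild-type mouse. Without that mouse *Itga9* was at -1.59 (adjusted p 0.0375, edgeR) and *Itga2* lost its call, at -2.12 (adjusted p 0.066). Single mice decided most of these downward calls: *Itgad*, *Itga9*, *Itga2* and *Itgb2l* all missed the adjusted p threshold without *MxCDX2* mouse 3, which left 1 gene of the list past both thresholds, 3 genes were past them without *MxCDX2* mouse 1 or 2, and *Itgad* and *Itga2* missed it in limma voom (adjusted p 0.0555 and 0.0686). *Itgae*, the alpha partner that *Itgb7* uses in T cells of epithelia, had 67.0 to 144 normalized counts in all mice and overlapped between groups (-0.35 ± 0.37, adjusted p 0.541, edgeR), at -0.03 without the wild-type mouse.

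The platelet receptor pair was named after its values had been seen, because it carried the wild-type mouse. *Itga2b* had 7435, 7905 and 64954 normalized counts in the controls and 4137 to 4749 in the *MxCDX2* mice, and *Itgb3* had 12007, 9321 and 67179 against 7123 to 7655. Neither passed the test (adjusted p 0.0799 and 0.105, edgeR), and without the wild-type mouse their log2 fold changes went from -2.58 to -0.76 and from -1.99 to -0.50. The *Itgb1* excess in that mouse went along with the megakaryocyte and platelet marker sum given above, and its part was not tested.

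**Figure D4:**
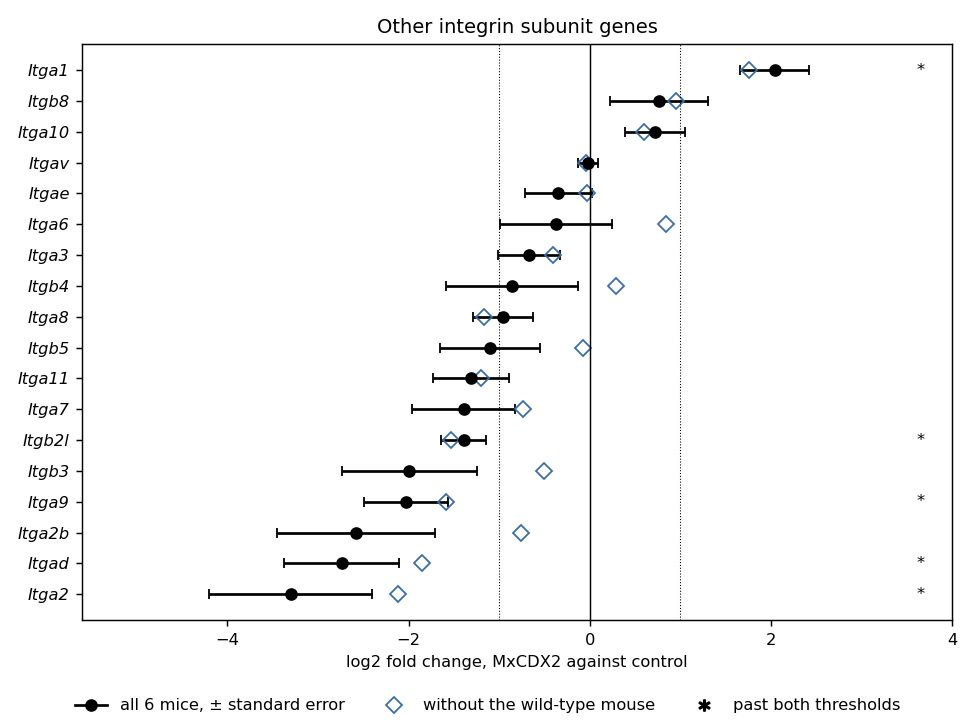
Log2 fold change of 18 other integrin subunit genes between *MxCDX2* and control mice (horizontal axis) with its standard error, and the fit without the wild-type mouse as an open diamond. Asterisks mark the 5 genes past both thresholds. *Itga2b* and *Itgb3* move from -2.58 and -1.99 to -0.76 and -0.50 without the wild-type mouse, while *Itga1* moves from 2.04 to 1.76 and *Itgb2l* from -1.39 to -1.53.

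Ligands in the marrow that the integrins bind were measured in the same RNA. Of 12 counter-receptor and matrix genes 10 were tested, 3 were past both thresholds downward and 7 did not pass in edgeR, with a median log2 fold change of -1.1. *Vcam1*, the VLA-4 ligand of marrow stroma and macrophages, had 10901, 7909 and 20488 normalized counts in the controls and 3190, 2096 and 4239 in the *MxCDX2* mice. All *MxCDX2* mice were below all controls, with a log2 fold change of -2.04 ± 0.41 (adjusted p 0.0161, edgeR), which missed the threshold without *MxCDX2* mouse 1 (0.0508) or 2 (0.0543). *Cdh1*, the E-cadherin gene, fell by 2.42 on the log2 scale (adjusted p 0.00531), and the other downward gene was *Icam5*, at 8.71 to 61.6 normalized counts. Fibronectin (*Fn1*, -0.82 ± 0.43, adjusted p 0.226) and the LFA-1 ligand *Icam1* (0.21 ± 0.26, adjusted p 0.612) did not pass the test in edgeR. Without the wild-type mouse *Fn1* passed both thresholds downward (-1.15, adjusted p 0.0299), which made 4 calls in the list, and *Icam1* was at 0.47 (adjusted p 0.188). *Madcam1* had under 4 normalized counts in every mouse and *Icam4* had no read.

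Genes of the selectin system were measured next to *Selplg*. Of 8 selectins and other selectin ligands, 0 passed both thresholds in edgeR, DESeq2 or limma voom. In edgeR, 3 had an adjusted p below 0.05, all of them higher, and 4 were higher and 1 lower at an unadjusted p below 0.05. Without the wild-type mouse 1 gene passed, *Cd34* (log2 fold change 1.5, adjusted p 0.00327). Among the higher genes were *Spn* (CD43, log2 fold change 0.54 ± 0.12, adjusted p 0.0230) and *Glg1* (a ligand of E-selectin, 0.51 ± 0.13, adjusted p 0.0360, edgeR), which like *Selplg* were separated between groups. The endothelial selectins did not pass: *Selp* had a log2 fold change of -1.10 ± 0.83, which turned to 0.50 without the wild-type mouse, and *Sele* one of -0.07 ± 0.35, which turned to 0.33.

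Several of the genes that turn PSGL-1 into a selectin ligand passed both thresholds, which *Selplg* itself did not. Of 11 such genes, 4 rose and 1 fell past both thresholds, all 5 in each of the 6 fits that left out a mouse, and the median log2 fold change was 0.29, or 0.46 without the wild-type mouse. *Fut7*, the fucosyltransferase that completes sialyl Lewis x, had 836, 982 and 976 normalized counts in the controls and 2612, 2535 and 2324 in the *MxCDX2* mice. The groups were far apart relative to their spread, with a log2 fold change of 1.42 ± 0.12 (2.67-fold, adjusted p 0.00156, edgeR). *Fut4*, a second leukocyte fucosyltransferase, had 782, 825 and 754 against 2762, 2874 and 2789, a log2 fold change of 1.84 ± 0.10 (3.57-fold, adjusted p 0.00077).

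The other genes that rose serve the same sugar chains. *C1galt1c1* encodes COSMC, the chaperone of the enzyme that extends O-glycans, and it had 1844, 1583 and 892 normalized counts in the controls against 5175, 4415 and 4808 in the *MxCDX2* mice (log2 fold change 1.74 ± 0.26, adjusted p 0.00628, edgeR). *Slc35c1*, the GDP-fucose transporter of the Golgi, had 4282, 4703 and 3119 against 10213, 8822 and 10446 (1.28 ± 0.17, adjusted p 0.00426). Of the sialyltransferases, *St3gal6* fell from 2000, 2083 and 2302 to 621, 311 and 391 (-2.27 ± 0.27, adjusted p 0.00299), while *St3gal4* was higher under the fold threshold (0.64 ± 0.12, adjusted p 0.0133). The core synthase *C1galt1*, whose product COSMC folds, was lower under the fold threshold (-0.59 ± 0.14, adjusted p 0.0275), and *Gcnt1*, *B4galt1*, *Tpst1* and *Tpst2* did not pass. Without the wild-type mouse *Tpst2* went from 0.09 to 0.46 (adjusted p 0.0148, edgeR), under the fold threshold. *Slc35c1*, *St3gal4*, *C1galt1*, *Spn*, *Glg1*, *Icam5* and *Cd34* were named after their values had been seen.

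**Figure D5:**
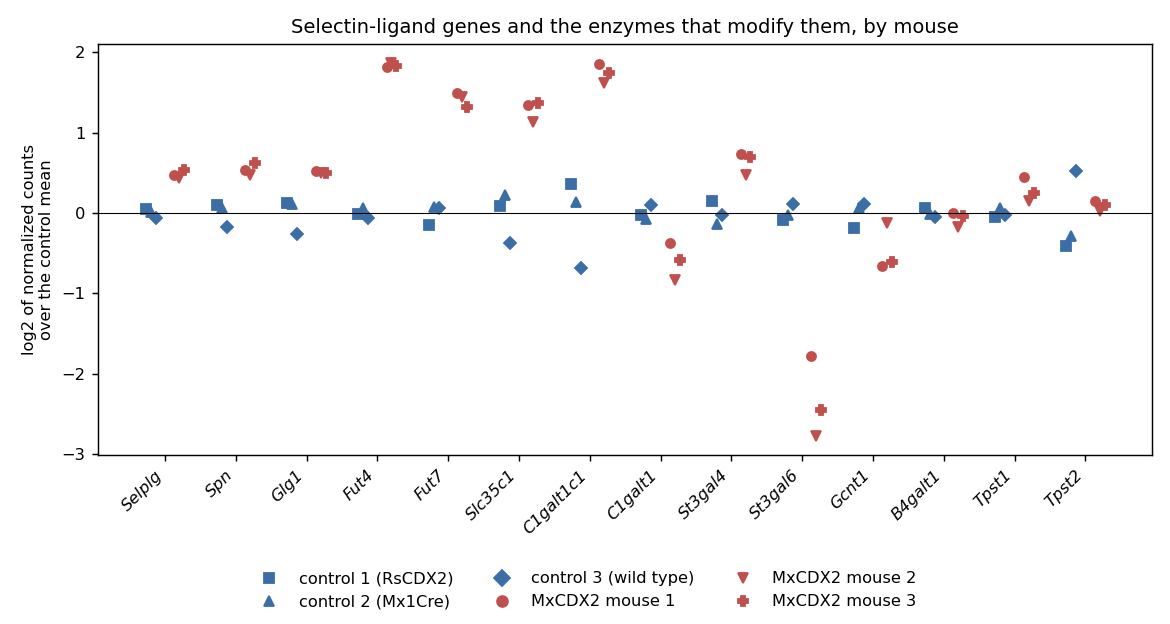
Log2 of the normalized counts over the control mean (vertical axis) for *Selplg*, other selectin-system genes and 11 enzyme, chaperone and transporter genes of selectin ligands in each mouse, controls in blue and *MxCDX2* mice in red. *Fut4*, *Fut7*, *Slc35c1* and *C1galt1c1* are above all controls and *St3gal6* is below all controls in every *MxCDX2* mouse.

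Inside the cell, 33 integrin activation and adaptor genes were listed and 32 tested, of which 3 fell and 29 did not pass both thresholds in edgeR (median log2 fold change -0.41, or -0.20 without the wild-type mouse). *Fgr*, a Src-family kinase of myeloid cells that acts below *Itgb2* receptors, fell from 12080, 11789 and 12055 normalized counts to 3536, 7027 and 4110 (log2 fold change -1.29 ± 0.26, adjusted p 0.0153, edgeR). *Rasgrp1*, an activator of Ras, fell by 1.46 (adjusted p 0.0233). *Src* fell by 4.30 (adjusted p 0.0206) from 976, 886 and 6642 normalized counts in controls 1, 2 and 3 to 94.0 to 218, with a log2 fold change of -2.68 without the wild-type mouse. All 3 missed the adjusted p threshold without *MxCDX2* mouse 3, leaving 0 genes of the list, only *Fgr* passed both thresholds without *MxCDX2* mouse 2, and DESeq2 called 6. Among genes at the core of activation, talin (*Tln1*, 0.02 ± 0.22, adjusted p 0.957) and kindlin-3 (*Fermt3*, -0.39 ± 0.33, adjusted p 0.448) did not pass in edgeR, and both were named after their values had been seen. Without the wild-type mouse they were at 0.26 (adjusted p 0.286, edgeR) and 0.13 (adjusted p 0.407).

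Likeness of pattern was measured as the root mean square difference of centered log2 normalized counts over the 6 mice, and is a description only. Within the 9 genes, *Itga4* and *Selplg* were the closest pair (0.079), followed by *Itgam* and *Itgb2* (0.146), and *Itga5* and *Itgax* were the farthest apart (1.11). Outside them, the 2 most alike genes of each included *Tmem218* (0.067) for *Itga5*, *Alg1* (0.015) and *Pdcd6ip* (0.029) for *Selplg*, *Zfp706* (0.038) and *Ccdc69* (0.045) for *Itga4*, and *Dpysl2* (0.107) and *Tmppe* (0.127) for *Itgb7*. Nearest to the *Itgb2* family were *Zfp346* (0.037) and *Hbp1* (0.04) for *Itgb2*, *Mppe1* (0.065) and *Ceacam1* (0.072) for *Itgam*, *Scin* (0.111) and *Dnmt3a* (0.124) for *Itgax*, and *Zfp142* (0.064) and *1110002L01Rik* (0.075) for *Itgal*. For *Itgb1* they were *Nme1* (0.059) and *Cox5a* (0.074).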

How the data were processed

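RNA was sequenced from the bone marrow of 6 mice after stranded mRNA library preparation. Per the labels and methods, the authors used bcl2fastq 2.17.1.14, aligned reads to GRCm38 with STAR 2.5 and counted them per gene with HTSeq 0.6.1, and they deposited raw counts, without normalization. The strand and overlap options of the counting are not given in the sources used here. Reads naming no gene (12.22% to 17.1% per mouse) were left out. Symbols and exon lengths came from GENCODE M21 (GRCm38), which matched 37693 of 39179 identifiers.

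Counts were tested in R 4.3.3 with edgeR 4.0.16 (TMM, filterByExpr, glmQLFit and glmQLFTest, without covariates), with Benjamini-Hochberg adjustment over 15980 genes. Standard errors were derived from the F statistic. Code was tested on simulated data. DESeq2 1.42.0, limma 3.58.1 (voom), other scalings and filters, and leaving out each mouse were the alternatives. Ratios used an exact two-sided permutation test. The 9 genes had 707 to 57135 reads per mouse.

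Named genes were the 9 genes, selected partners, the 2 most alike genes of each, and in each list the up to 4 largest changes past both thresholds with separated groups and a mean of at least 100 normalized counts. Exceptions are marked, and genes that the rule names but the text omits are not reported here. The genes and lists were chosen with earlier results of these data known.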

Additional observations from a re-analysis of the deposited data

How the results depend on the processing

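With 3 mice per group, permutation tests could not go below p = 0.1, and each control genotype was seen in 1 mouse. DESeq2 called 2 of the 9 genes past both thresholds (*Itga5* and *Itgax*), and leaving out a mouse gave 1 to 2, as against 1. The genes with an adjusted p below 0.05 numbered 1 to 5 with a mouse left out, as against 4. Over all genes, leaving out a mouse gave 1205 to 2406 calls, the fewest without *MxCDX2* mouse 3. The other integrin subunits gave 3 calls in limma voom and 1 to 6 with a mouse left out. Selectins and other selectin ligands gave 0 to 1, the 1 being without the wild-type mouse. Activation and adaptor genes gave 6 calls in DESeq2, 5 without the filter on low counts and 0 to 4 with a mouse left out. Counter-receptor and matrix genes gave 2 to 4 with a mouse left out, as against 3. The causes were not tested.

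Against *Ptprc*, *Coro1a* and *Laptm5* together in place of *Ptprc*, the log2 ratio difference was lower for all 9 genes. It was 0.92 for *Itga5*, 0.67 for *Itgb7*, 0.28 for *Itga4* and 0.27 for *Selplg*. For the others it was -0.27 for *Itgb1*, -0.54 for *Itgb2*, -0.67 for *Itgam* and -1.16 for *Itgax*. For *Itgal* it changed sign, from 0.06 to -0.19. Scaling by total counts only moved the median of all genes by 0.116, and no fold change of the 9 genes turned its sign under any scaling. Changes of sign were all in genes that did not pass the test. With a mouse left out, log2 fold changes ran from -0.07 to 0.19 for *Itgal* (negative without *MxCDX2* mouse 1), from -0.35 to 0.29 for *Itgb1* (positive without control 3), from -0.02 to 0.47 for *Icam1* (negative without *MxCDX2* mouse 1), from -1.56 to 0.50 for *Selp* (positive without control 3), from -0.25 to 0.33 for *Sele* (positive without *MxCDX2* mouse 2 or control 3) and from -0.13 to 0.05 for *Ptprc* (positive without *MxCDX2* mouse 1 or 3 or control 2). With total counts only, *Sele* was at 0.03 and *Ptprc* at 0.10, and without the filter *Ptprc* was at 0.01. Other listed genes also turned with a mouse left out. Among them were *Tln1* (-0.09 to 0.26), *Fermt3* (-0.59 to 0.13), *Tpst2* (-0.06 to 0.46) and *Itga6* (-0.75 to 0.84). *Itga6*, named after its values had been seen, was at 0.84 without the wild-type mouse (adjusted p 0.00342, edgeR), under the fold threshold.

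No paired analysis was possible because the replicate numbers are running numbers of single mice, the controls have 3 genotypes, and no number links a control to an *MxCDX2* mouse.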
